A study of Mus musculus with 22 samples.

Results

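The 10 genes described here code for the mucus that goblet cells secrete in the gut, for the proteins that help to fold and process it, and for a mucin of the cell surface: Muc2, Tff3, Clca1, Fcgbp, Agr2, Zg16, Retnlb, Spink4, Ern2 and Muc13. They were taken by gene name from 27653 genes on a mouse whole-genome array, and all 10 were found. The name printed for the spot gave 8 of them, counting the array's Clca3, which is the older name of Clca1, and 2 came through an accession (Zg16) or the probe description (Fcgbp). The study compared SIRT1 iKO mice, in which the intestinal protein deacetylase SIRT1 is deleted, with Flox controls, in young and aged ileum and in aged colon. Total RNA of male C57BL/6 mice on chow was hybridised to 22 arrays. Young mice were 6 to 8 weeks old and aged mice 24 months old. The groups were young ileum iKO (n = 4) and flox (n = 4), aged ileum iKO (n = 4) and flox (n = 3), and aged colon iKO (n = 4) and flox (n = 3). The labels do not name the promoter or Cre line behind the deletion, and do not say whether the ileum and colon samples came from the same mice.

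Goblet cells store mucin in granules and release it as a gel that keeps bacteria away from the epithelium. In the colon this gel forms an inner layer that is nearly free of bacteria, and in the ileum a looser and more easily removed layer. Muc2 is the mucin that forms the gel; the other secreted proteins bind to it, cut it or act on bacteria and epithelium beside it, and a protein disulfide isomerase and a stress sensor of the endoplasmic reticulum serve its synthesis.

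Each of the 10 genes was read by 1 probe of 60 bases, and each probe was well above background on all 22 arrays. The probes of 4 genes are shown because the differences below turn on them, the first 3 because their annotated positions span more genome than the probe is long, and the Zg16 probe because its spot reached the scanner's ceiling. They are written 5′ to 3′ in lower case, with no base singled out.
Fcgbp: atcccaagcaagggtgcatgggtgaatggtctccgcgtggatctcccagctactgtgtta
Spink4: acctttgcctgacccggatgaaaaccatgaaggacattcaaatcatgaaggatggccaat
Ern2: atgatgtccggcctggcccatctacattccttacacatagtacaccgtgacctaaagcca
Zg16: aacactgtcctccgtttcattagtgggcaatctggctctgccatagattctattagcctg
On mouse build mm7, the build of the array's own annotation, the Fcgbp probe lies at chr7:25051462-25054256 and spans 2795 bases. The Spink4 probe lies at chr4:41067636-41069760 and spans 2125 bases. The Ern2 probe lies at chr7:118097615-118097757 and spans 143 bases. The Zg16 probe lies within 60 bases at chr7:123146881-123146940. The other probes lie at chr7:138181839-138181898 for Muc2, chr17:29320548-29320607 for Tff3, chr3:144897653-144897712 for Clca1, chr12:33843528-33843587 for Agr2, chr16:48579484-48579543 for Retnlb and chr16:33493901-33493960 for Muc13. Whether a probe lies in coding sequence or in a UTR was not analysed here.

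Levels are given on the log2 scale relative to each array's own 75th percentile of signal, so that a difference of 1 is a doubling. Levels of different probes are not set against each other. Differences were tested with limma over all genes measured and called at a Benjamini-Hochberg adjusted p under 0.05; errors of differences are standard errors of the fit, and means carry SDs over arrays. As a check of the labels, the Sirt1 probe had a lower mean in iKO in young ileum (log2 difference -0.21 ± 0.12, adjusted p = 0.999), in aged ileum (-0.50 ± 0.13, adjusted p = 0.177) and in aged colon (-0.28 ± 0.11, adjusted p = 0.623), none of which passed in limma. The sources used here do not say which part of Sirt1 was deleted, so the probe may lie outside it. Arrays of 1 group correlated at 0.976 to 0.989 over the tested genes with a value on every array. Absorptive enterocyte markers of the ileum averaged -1.14 to -0.59 on colon arrays and 3.34 to 4.90 on ileum arrays. Of the aged ileum arrays, 2 stood apart in the other direction. The 11 markers of colonic absorptive epithelium averaged 4.18 to 4.72 on colon arrays and 0.09 to 1.52 on 13 ileum arrays, but 3.43 on aged ileum iKO replicate 2 and 3.59 on aged ileum flox replicate 1. Aqp8, a water channel of colonic surface cells, was at 5.57 and 6.55 on these arrays and at most -2.08 on the other ileum arrays, and Car1, a carbonic anhydrase of the colon, was at 7.79 and 8.18 against at most 2.63. Of the 11 markers, 4 (Aqp8, Car1, Car2 and Slc26a3) were higher on both arrays than on every other ileum array. Krt20 and Ms4a12 were lower on every colon array than on every ileum array, and Saa1 overlapped between the tissues, so these genes did not mark colon here. Scnn1b, a sodium channel subunit at -3.97 to -1.10 on colon arrays, was at -6.38 and -6.20 on both arrays, within the range of the other ileum arrays. Both arrays also had the highest Retnlb of all ileum arrays (5.12 and 4.28), and the part of colonic RNA in the ileum values was not tested. The mucus gene results that use aged ileum were recomputed without both arrays, an alternative chosen after their values were seen. These values are given beside most of the calls and list counts discussed. In whole tissue, fewer cells of a type and less RNA per cell cannot be told apart.

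**Figure D1:**
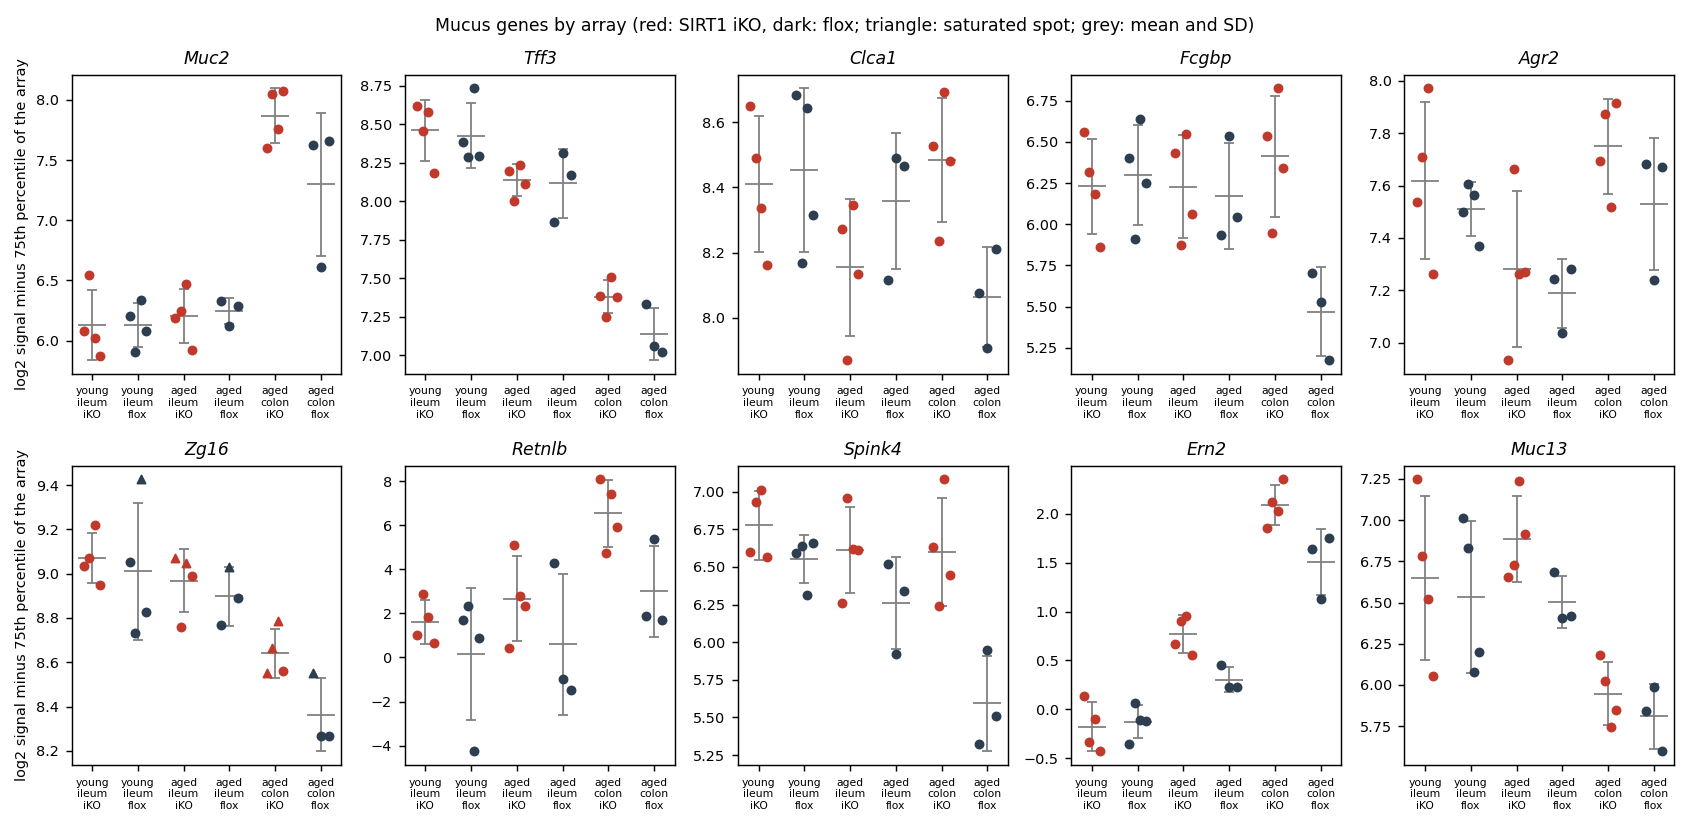
Level of each mucus gene (y axis, log2 signal minus the 75th percentile of the array) on each of the 22 arrays, by group (x axis), with SIRT1 iKO in red left of flox in dark; grey marks are group means with SD and triangles are saturated spots. Retnlb spans 12.34 log2 units over the arrays. By group mean of the scaled level, Muc2 and Ern2 are highest in colon and Tff3, Zg16 and Muc13 lowest there, Zg16 with saturated spots in both tissues. Fcgbp and Spink4 are lower in flox colon than in iKO colon.

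In aged colon all 10 mucus genes had a higher mean in iKO than in flox, against 47.3% of the 19574 genes tested, and their median difference was 0.50, against -0.01 over all genes. None of the 10 was called, in a comparison that called 22 genes or 0.112%. At an unadjusted p under 0.05 there were 6 of the 10 (Spink4, Fcgbp, Retnlb, Ern2, Clca1 and Zg16), against 7.21% of all genes. For Spink4, Fcgbp, Clca1 and Ern2 every iKO array lay above every flox array, which 4.43% of all genes did. The colon comparison uses no ileum array. The sign stayed positive for all 10 under each of the alternative settings and with each colon array left out in turn.

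Among the proteins of the gel itself, Fcgbp, a large protein with von Willebrand domains that is abundant in colonic mucus, had levels of 6.53, 5.94, 6.83 and 6.34 on the iKO colon arrays, against 5.70, 5.53 and 5.18 on the flox colon arrays. The arrays of the groups did not overlap, and the difference was 0.94 ± 0.23 (95% interval 0.41 to 1.48, 1.92-fold, limma adjusted p = 0.342). Clca1, a secreted metalloprotease that cuts Muc2, had 8.53, 8.24, 8.69 and 8.48 in iKO colon and 8.08, 7.91 and 8.21 in flox colon. Here too the groups were separate, by a narrow margin between 8.24 and 8.21, with a difference of 0.42 ± 0.14 (0.09 to 0.74, adjusted p = 0.527). Muc2 had 7.60, 8.05, 7.76 and 8.07 in iKO colon and 7.63, 6.61 and 7.66 in flox colon. The groups overlapped, the low flox array was replicate 3, and the difference of 0.57 ± 0.28 (-0.08 to 1.22, adjusted p = 0.763) was 0.23 without it. Zg16, a lectin that binds the wall of Gram-positive bacteria, had 8.55, 8.66, 8.79 and 8.56 in iKO colon and 8.55, 8.27 and 8.27 in flox colon (0.28 ± 0.12, adjusted p = 0.692). Its spot was saturated on 3 of the 4 iKO and 1 of the 3 flox colon arrays, and on 8 of the 22 arrays in all, so its highest levels are lower limits.

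The small secreted proteins included the largest of these differences. Spink4, a Kazal-type protease inhibitor of goblet cells, had 6.63, 6.24, 7.08 and 6.45 in iKO colon and 5.32, 5.94 and 5.51 in flox colon. The lowest iKO array lay above the highest flox array, and the difference was 1.01 ± 0.23 (0.46 to 1.56, 2.01-fold, adjusted p = 0.314). Retnlb, the resistin-like protein RELMβ that goblet cells secrete and that kills bacteria, had 8.08, 4.73, 7.40 and 5.93 in iKO colon and 1.90, 5.39 and 1.71 in flox colon. Flox replicate 3 lay above iKO replicate 2, so the groups overlapped, and the difference was 3.53 ± 1.12 with a wide interval of 0.88 to 6.18 (11.6-fold, adjusted p = 0.512). Tff3, a trefoil peptide of epithelial repair, differed by 0.24 ± 0.12 (-0.03 to 0.52, adjusted p = 0.761), with means of 7.38 ± 0.11 in iKO and 7.14 ± 0.17 in flox colon.

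Of the proteins that serve mucin synthesis, Ern2, the endoplasmic reticulum stress sensor IRE1β of mucus-producing epithelium, had 1.86, 2.13, 2.03 and 2.35 in iKO colon and 1.64, 1.13 and 1.76 in flox colon. The groups were separate, with a difference of 0.58 ± 0.19 (0.14 to 1.03, adjusted p = 0.521). Agr2, the protein disulfide isomerase needed to make Muc2, had 7.70, 7.87, 7.52 and 7.92 in iKO colon and 7.68, 7.24 and 7.67 in flox colon. Its groups overlapped (0.22 ± 0.16, adjusted p = 0.884), and without flox replicate 3 the difference was 0.07. Muc13, a membrane mucin that is also carried by cells other than goblet cells, differed least (0.14 ± 0.15, -0.21 to 0.49, adjusted p = 0.942).

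Every flox colon array sat at position 3 of its slide and every iKO colon array at position 4, so genotype and position cannot be told apart there. On 3 slides there was 1 array of each genotype. Within them Spink4 was higher in iKO by 0.30 to 1.57 and Fcgbp by 0.42 to 1.65. Clca1 was higher by 0.33 to 0.48 and Ern2 by 0.27 to 1.00. The groups did not overlap for these genes, so the sign on each slide was fixed in advance and adds nothing. Muc2 (0.10 to 1.43), Tff3 (0.05 to 0.49), Zg16 (0.0076 to 0.52) and Muc13 (0.0013 to 0.15) were also higher on 3 of 3 slides. Agr2 was higher on 2 of 3 slides (-0.15 to 0.63). Retnlb was higher on 2 of 3 slides, from -0.67 to 5.69, with the negative value on the slide of iKO replicate 2 and flox replicate 3.

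**Figure D2:**
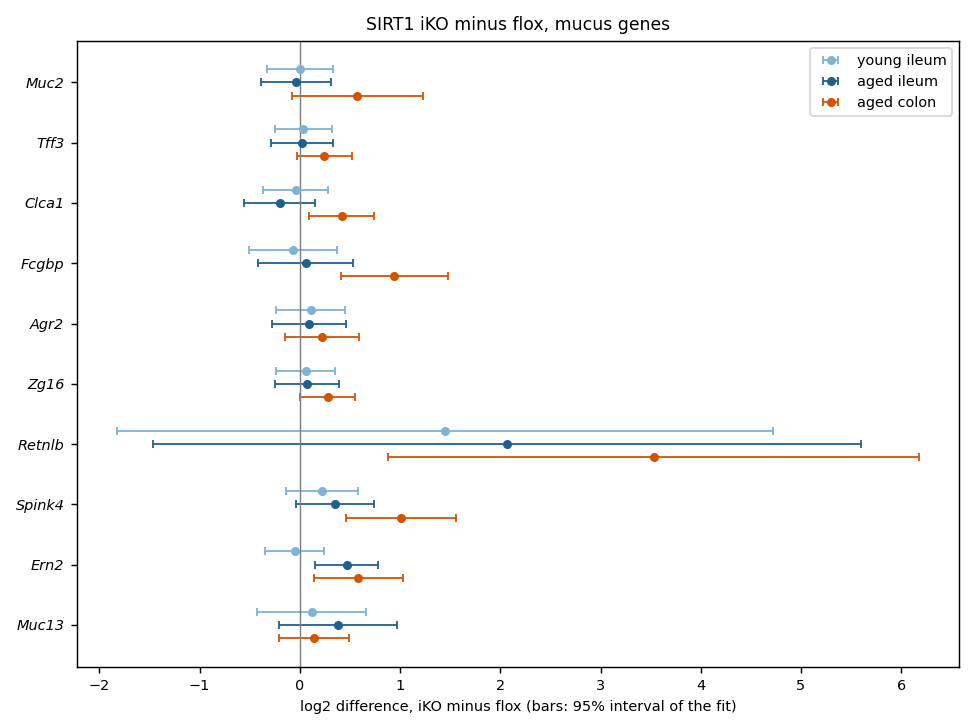
Log2 difference, iKO minus flox (x axis, points with 95% intervals of the fit), for each mucus gene (y axis) in young ileum, aged ileum and aged colon. All 10 colon points lie right of 0, with Retnlb at 3.53, Spink4 at 1.01 and Fcgbp at 0.94, and the young ileum points other than Retnlb lie between -0.07 and 0.23.

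The same colon comparison was described for 6 lists of goblet cell and secretory genes. Of the 18 lineage regulators, 14 had a higher mean in iKO colon and 0 were called (median 0.18). Of 34 other goblet cell genes tested, 25 were higher and 0 were called (median 0.17), and of 24 genes of secretory protein folding 22 were higher and 0 were called (median 0.14). The 28 genes of mucin O-glycosylation showed no such lean, with 12 higher and 0 called (median -0.02). Other mucins, with 8 tested, had 1 higher and 0 called (median -0.19), and the interleukin 4 and 13 axis, with 13 tested, had 7 higher and 0 called (median 0.02).

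Single genes of these lists with the smallest p included Capn9, a calpain of the gut epithelium, at 1.67, 0.95, 1.99 and 1.37 in iKO colon and 0.33, 0.09 and 0.12 in flox colon. Its groups were separate (1.32 ± 0.24, limma adjusted p = 0.18). Ang4, an antimicrobial angiogenin made by Paneth and goblet cells, had 7.40, 3.77, 7.39 and 5.86 in iKO colon and 1.87, 2.54 and 3.78 in flox colon (3.37 ± 0.94, adjusted p = 0.431). As for Retnlb, iKO replicate 2 was the low iKO array, and it overlapped flox replicate 4. Bhlha15, a transcription factor of secretory cells also called Mist1, had 0.14, -0.63, 0.27 and 0.27 in iKO colon and -0.79, -1.46 and -1.26 in flox colon (1.18 ± 0.27, adjusted p = 0.299). Dll1, a Notch ligand of secretory precursors, went the other way, with -1.98, -1.68, -1.64 and -2.20 in iKO colon and -1.09, -0.66 and -1.09 in flox colon (-0.93 ± 0.18, adjusted p = 0.22).

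Markers of other cells were read on the same colon arrays. The 8 Paneth cell markers tested had a mean level of -0.04 to 1.04 on iKO and -0.59 to -0.01 on flox colon arrays, with 6 of 8 higher and 0 called. Enteroendocrine markers averaged 0.89 to 1.44 in iKO and 0.52 to 1.26 in flox colon, with 11 of 15 higher and 0 called, and tuft cell markers averaged -2.03 to -1.37 in iKO and -2.11 to -1.57 in flox colon, with 9 of 10 higher and 0 called. Colonic absorptive markers averaged 4.18 to 4.54 in iKO and 4.37 to 4.72 in flox colon, with 2 of 11 higher and 0 called. The part of these cell types in the mucus gene differences was not tested.

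In young ileum the mucus genes differed little between genotypes. A higher mean in iKO was found for 7 of the 10, against 48.1% of 15479 genes, with a median difference of 0.05 against -0.01 over all genes. None was called, where 7 genes or 0.0452% were, and none reached an unadjusted p under 0.05. For 7 of them, all but Retnlb, Muc13 and Spink4, the 95% intervals lay between -0.51 (Fcgbp) and 0.45 (Agr2). For Muc2 the interval ran from -0.33 to 0.33. The Muc2 estimate of 0.57 in aged colon lay outside it, but the interval of that estimate, given above, overlapped it. No test compared these differences. Retnlb had 1.04, 2.89, 1.84 and 0.68 in young iKO ileum and 1.69, 2.33, -4.26 and 0.90 in young flox ileum. Flox replicate 3 alone was low, the other 7 arrays overlapped, and the difference of 1.45 ± 1.52 (adjusted p = 0.999) was bounded only between -1.82 and 4.72. Without that array it was -0.02. Each young slide held both genotypes, flox at position 1 and iKO at position 2. Within the 4 slides every mucus gene differed in both directions. Spink4 ran from -0.04 to 0.35, Tff3 from -0.55 to 0.33, Fcgbp from -0.77 to 0.65 and Retnlb from -1.29 to 4.94.

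In aged ileum 8 of the 10 had a higher mean in iKO, against 53.5% of all genes, and the median was 0.08 against 0.02 over all genes. None was called, where 26 genes or 0.168% were. The member with the smallest p was Ern2, the only 1 of the 10 at an unadjusted p under 0.05, where 11.9% of genes were, with 0.67, 0.90, 0.96 and 0.55 in aged iKO ileum and 0.45, 0.23 and 0.23 in aged flox ileum. All iKO arrays lay above all flox arrays, as they did for 8.37% of genes, and the difference was 0.47 ± 0.15 (0.15 to 0.78, unadjusted p = 0.0072, adjusted p = 0.252). On the 1 slide that held both aged genotypes Ern2 was higher in iKO by 0.68. Within that pair Muc2 (0.13), Agr2 (0.62), Muc13 (0.32), Spink4 (1.03) and Retnlb (6.11) were also higher in iKO. Tff3 (-0.31), Zg16 (-0.27), Clca1 (-0.62) and Fcgbp (-0.66) were lower. The iKO array of that pair was replicate 2, which had raised colonic markers, and iKO and flox sat at positions 4 and 3. With array weights the fit called Ern2 and Retnlb (adjusted p = 0.0103 and 0.0454), in a setting that called 2814 genes in all. Retnlb had 0.45, 5.12, 2.78 and 2.31 in aged iKO ileum and 4.28, -0.996 and -1.48 in aged flox ileum (2.06 ± 1.64, adjusted p = 0.636), and 1 flox array lay above 3 of the 4 iKO arrays. That array and the highest iKO array were those with colonic markers, and without both Retnlb differed by 3.08 ± 1.57 (adjusted p = 0.498) and Ern2 by 0.50 ± 0.18 (adjusted p = 0.322). Without them 6 of the 10 were positive and 0 were called, Tff3 (-0.06) and Agr2 (-0.01) having changed sign. With all arrays Spink4 differed by 0.35 ± 0.18 (-0.04 to 0.74, adjusted p = 0.459) and Muc13 by 0.38 ± 0.27 (-0.21 to 0.97, adjusted p = 0.594), and without both by 0.37 ± 0.19 and 0.53 ± 0.35. The remaining 6, with all arrays, lay between -0.20 (Clca1) and 0.09 (Agr2).

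Around them in aged ileum, of the 6 lists 1 gene was called, where 0.0517% of all genes were called lower in iKO. Foxa2, a forkhead factor of secretory lineages that binds the Muc2 promoter in mouse, fell in iKO, with 0.42, 0.72, 0.09 and 0.19 in aged iKO ileum and 1.20, 1.28 and 1.20 in aged flox ileum. The groups were well apart (-0.87 ± 0.15, limma adjusted p = 0.0315), and Muc2 itself differed by -0.04 ± 0.16 on the same arrays. The Foxa2 call was lost without any one of aged flox 1, 3 or 4, aged iKO 1, 3 or 4, young flox 1 or 4 or young iKO 1 (adjusted p between 0.05 and 0.122), with a replicate block (0.0941) and with slide fitted as a factor (-0.78, adjusted p = 0.462). Without the arrays with colonic markers it was kept (-1.01 ± 0.15, adjusted p = 0.0214). Genes of secretory protein folding had 22 of 24 higher and 0 called (median 0.21), and fibroblast and matrix markers averaged 0.94 to 1.55 on iKO and 1.56 to 1.94 on flox arrays, with 0 of 9 higher and 1 called lower. Enteroendocrine markers averaged -0.02 to 0.20 on iKO and 0.13 to 0.65 on flox arrays, with 1 of 13 higher and 0 called. Without the arrays with colonic markers, 21 of 24 folding genes were higher and 0 called, 0 of 9 fibroblast and matrix markers were higher and 0 called, and 1 of 14 enteroendocrine markers was higher and 1 called lower. The part of these markers in the differences was not tested.

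With age, 1 of the 10 mucus genes was called, Ern2 in iKO ileum, a share near the 10.7% of all genes called there. In iKO ileum Ern2 had 0.67, 0.90, 0.96 and 0.55 in aged mice and 0.14, -0.33, -0.10 and -0.43 in young mice. The ages did not overlap, and Ern2 rose by 0.95 ± 0.14 (0.66 to 1.24, 1.93-fold, limma adjusted p = 0.00132), the only call among the 10, 2 of which had an unadjusted p under 0.05 (27.7% of genes) and 1 of which had separate arrays with the aged ones higher (8.27% of genes). Here 10.7% of all genes were called and 5.16% were called higher. That call was kept under all 13 alternatives, among them the fit without both arrays with colonic markers (0.91 ± 0.15, adjusted p = 0.00814), and with each of the 15 ileum arrays left out (0.87 to 1.06). In flox ileum Ern2 had 0.45, 0.23 and 0.23 in aged mice and -0.35, 0.06, -0.10 and -0.12 in young mice, again without overlap (9.21% of genes had aged arrays all higher), and the difference of 0.43 ± 0.15 did not pass (adjusted p = 0.0838, and 0.36 ± 0.17 with 0.254 without the arrays with colonic markers). None of the 10 was called in flox, where 8.54% of all genes were, and 2 had an unadjusted p under 0.05, where 26.5% did. Array weights called Ern2 (0.40, adjusted p = 0.0205). The test of whether ageing differed between genotypes gave 0.52 ± 0.20 for Ern2 (0.09 to 0.95, unadjusted p = 0.0224, adjusted p = 1), and 0.55 ± 0.23 (unadjusted p = 0.0335, adjusted p = 1) without the arrays with colonic markers. None of the 10 and 0 of 15479 genes were called by that test, which had 1 member and 391 genes (2.53%) at an unadjusted p under 0.05. All young ileum arrays sat at positions 1 and 2 and all aged ones at positions 3 and 4 of their slides, so age and position cannot be told apart.

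Among the other mucus genes, Tff3 and Agr2 had lower means in aged than in young ileum of both genotypes under the percentile scaling, without passing. Tff3 averaged 8.14 ± 0.10 in aged and 8.46 ± 0.20 in young iKO ileum (-0.32 ± 0.13, adjusted p = 0.131), and 8.12 ± 0.23 in aged and 8.43 ± 0.21 in young flox ileum (-0.31 ± 0.14, adjusted p = 0.182). Agr2 averaged 7.28 ± 0.30 in aged and 7.62 ± 0.30 in young iKO ileum (-0.34 ± 0.16, adjusted p = 0.188), and 7.19 ± 0.13 in aged and 7.51 ± 0.10 in young flox ileum (-0.32 ± 0.17, adjusted p = 0.254). Without the arrays with colonic markers Tff3 differed by -0.28 in iKO and -0.19 in flox, and Agr2 by -0.46 (adjusted p = 0.0943) in iKO and -0.35 in flox. In flox every aged Agr2 array lay below every young one, which 15.4% of all genes did. With quantile normalization 7 of the 10 were positive in each genotype, where the percentile scaling had 4 in iKO (47.8% of genes) and 3 in flox (46.9%), so the sign of the small ageing differences follows the scaling. Median differences over the 10 were -0.05 in iKO and -0.10 in flox, against -0.02 over all genes in both, and 0.01 in iKO and -0.08 in flox without the arrays with colonic markers.

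Of the 24 protein folding genes that serve secretion, 8 were called lower with age in iKO ileum and 6 in flox ileum, where 5.58% and 5.37% of all genes were. In iKO 9 of the 24 had a higher mean in aged mice, and in flox 2 did. Without the arrays with colonic markers 5 were called lower in iKO and 2 in flox. The shares of all genes given here are from the fit of all ileum arrays, not from the fit without both. Pdia3, a disulfide isomerase of glycoprotein folding, fell by 0.47 ± 0.10 in iKO (limma adjusted p = 0.012) and by 0.66 ± 0.11 in flox (adjusted p = 0.0037), the iKO call being lost with quantile normalization (-0.35, adjusted p = 0.0544). In mucin O-glycosylation 3 of 27 were called lower in iKO and 2 of 27 in flox, against the same 5.58% and 5.37%. Without the arrays with colonic markers 2 and 1 were called lower. Galnt1, which starts O-glycan chains, fell by 0.61 ± 0.10 in iKO (adjusted p = 0.0034) and by 0.60 ± 0.11 in flox (adjusted p = 0.0075). Without those arrays the values were -0.51 in iKO and -0.69 in flox for Pdia3, and -0.58 and -0.59 for Galnt1. Each of these calls was kept (limma adjusted p 0.0175 to 0.0363). Vamp8, a protein of granule release, fell by 0.48 ± 0.10 in iKO (adjusted p = 0.012), the only call among 32 other goblet cell genes there, where 4 were called lower in flox. Without those arrays the call of Vamp8 in iKO was kept (-0.44 ± 0.11, adjusted p = 0.0334) and 0 of the 32 were called in flox.

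Colon and ileum of aged mice differed in most of the mucus genes, as in many other genes. In iKO 7 of the 10 were called, where 43.6% of 19626 genes were, and in flox 6 of the 10, where 32.9% were. Higher in colon were 4 in iKO (24.2% of genes) and 2 in flox (19.1%), and lower were 3 in iKO (19.4%) and 4 in flox (13.8%). Colon arrays lay wholly above ileum arrays for 2 in iKO (23.3% of genes) and 2 in flox (27.4%), and wholly below for 2 in iKO (19.8%) and 4 in flox (18.1%). Without both ileum arrays with colonic markers 7 were called in each genotype, Retnlb having been added in flox. The shares of all genes above are from the fit with all arrays, and those of the fit without both are not given here. Colon arrays were run on other slides and another scan day than ileum arrays, so tissue and array run cannot be told apart. The flox and iKO comparisons use separate arrays but 1 shared estimate of the spread.

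Muc2 and Ern2 were higher in colon in both genotypes. Muc2 had 7.60, 8.05, 7.76 and 8.07 in iKO colon and 6.19, 6.24, 6.47 and 5.92 in iKO ileum, with a wide gap between them (1.67 ± 0.22, 3.17-fold, limma adjusted p = 8.78e-05). Without the arrays with colonic markers the difference was 1.68 ± 0.25. In flox it had 7.63, 6.61 and 7.66 in colon and 6.33, 6.12 and 6.29 in ileum, also separate (1.05 ± 0.25, 2.08-fold, adjusted p = 0.00714, and 0.0536 in a fit of the contrast's groups alone), and without the arrays with colonic markers the difference was 1.10 ± 0.30 (adjusted p = 0.0212). Ern2 rose by 1.32 ± 0.15 in iKO colon over iKO ileum (adjusted p = 4.23e-05) and by 1.20 ± 0.18 in flox colon over flox ileum (adjusted p = 0.000441), and by 1.37 ± 0.17 and 1.28 ± 0.21 without those arrays. Its 6 group means ran in the order colon iKO 2.09, colon flox 1.51, aged ileum iKO 0.77, aged ileum flox 0.30, young ileum flox -0.13 and young ileum iKO -0.18. Each of these groups lay wholly above the next except the last pair, which overlapped.

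Tff3 and Muc13 were lower in colon in both genotypes. Tff3 averaged 7.38 ± 0.11 in iKO colon and 8.14 ± 0.10 in iKO ileum (-0.75 ± 0.11, adjusted p = 0.000229), and 7.14 ± 0.17 in flox colon and 8.12 ± 0.23 in flox ileum (-0.98 ± 0.13, adjusted p = 0.000202). Muc13 averaged 5.95 ± 0.19 in iKO colon and 6.89 ± 0.26 in iKO ileum (-0.94 ± 0.15, adjusted p = 0.000349), and 5.81 ± 0.20 in flox colon and 6.50 ± 0.16 in flox ileum (-0.69 ± 0.17, adjusted p = 0.00873). For both genes the colon and ileum arrays of a genotype did not overlap. These 4 calls held under every alternative and with each array left out. Without both arrays with colonic markers Tff3 differed by -0.80 in iKO and -1.10 in flox, and Muc13 by -0.99 in iKO and -0.60 in flox.

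Zg16 was called lower in colon too, by -0.33 ± 0.10 in iKO (limma adjusted p = 0.0239) and -0.53 ± 0.12 in flox (adjusted p = 0.00551), but under quantile normalization the values were 0.01 (adjusted p = 0.918) in iKO and -0.20 (adjusted p = 0.21) in flox. Its spot was saturated on 3 of 4 iKO colon, 2 of 4 aged iKO ileum, 1 of 3 flox colon and 1 of 3 aged flox ileum arrays, which makes these differences uncertain. Without both arrays with colonic markers they were -0.40 (adjusted p = 0.0107) in iKO and -0.60 (adjusted p = 0.00454) in flox. Leaving out aged ileum iKO 1, 3 or 4 or colon iKO 1 or 4 also ended the iKO call (adjusted p 0.0543 to 0.0646).

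Agr2 and Retnlb were called higher in colon in iKO only: Agr2 by 0.47 ± 0.16 (adjusted p = 0.0318; in flox 0.34 ± 0.18, adjusted p = 0.175) and Retnlb by 3.87 ± 1.40 (14.6-fold, adjusted p = 0.0419; in flox 2.40 ± 1.62, adjusted p = 0.278). The difference between genotypes was 0.13 ± 0.24 for Agr2 (adjusted p = 0.937) and 1.47 ± 2.14 for Retnlb (adjusted p = 0.917), so neither is shown to differ. Under quantile normalization Agr2 was also called in flox (0.60, adjusted p = 0.0471). Without both arrays with colonic markers Agr2 was 0.60 ± 0.15 (adjusted p = 0.0115) in iKO and 0.37 ± 0.18 (adjusted p = 0.155) in flox. The iKO call of Agr2 was lost in a fit of the contrast's groups alone (adjusted p = 0.0508) and without ileum iKO 1, 3 or 4 or colon iKO 1, 2 or 4 (adjusted p 0.0526 to 0.092) and the Retnlb call without ileum iKO 1, 3 or 4 or colon iKO 1, 3 or 4 (0.0614 to 0.115). In flox, Retnlb was called with array weights (4.25, adjusted p = 0.0433) and without ileum flox 1 (4.24, adjusted p = 0.0442), which carries colonic markers. Without both such arrays Retnlb was higher in colon by 4.68 ± 1.05 in iKO (adjusted p = 0.0056) and 4.24 ± 1.25 in flox (adjusted p = 0.0278), and its genotype by tissue value was 0.45 ± 1.63. With a replicate block the Retnlb call in iKO was lost (adjusted p = 0.0678).

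**Figure D3:**
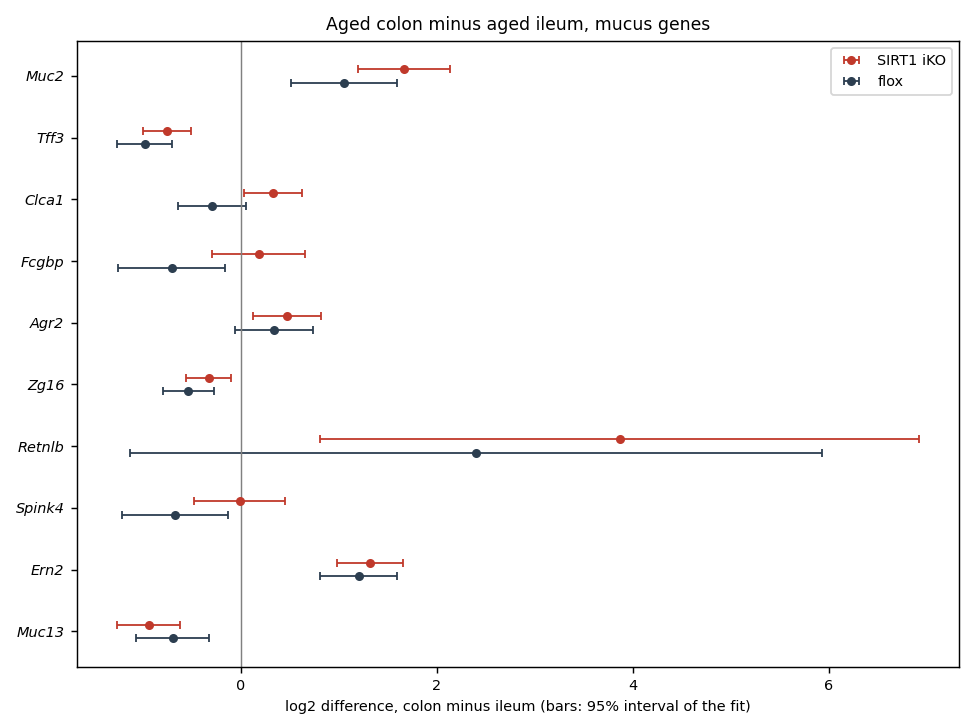
Log2 difference, aged colon minus aged ileum (x axis, points with 95% intervals of the fit), for each mucus gene (y axis) in SIRT1 iKO (red) and flox (dark) mice. Muc2 (1.67 in iKO and 1.05 in flox) and Ern2 (1.32 and 1.20) lie right of 0 and Tff3 and Muc13 left of it in both genotypes, while the iKO points of Clca1, Fcgbp and Spink4 lie to the right of the flox points.

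For Clca1, Fcgbp and Spink4 the estimated tissue difference took different signs or sizes in the genotypes, but none of them is shown to differ between genotypes. Fcgbp was 0.18 ± 0.22 higher in colon in iKO (adjusted p = 0.527) and fell in colon by 0.70 ± 0.25 in flox (adjusted p = 0.0494). That flox call stood at the threshold: it was made under 7 of 12 alternatives, among them the fit without both arrays with colonic markers (-0.82 ± 0.27, adjusted p = 0.0437), and with 5 of 14 arrays left out in turn, and ended without aged ileum flox 3 or 4, ileum iKO 1 or 4, colon flox 1, 3 or 4 or colon iKO 1 or 4 (adjusted p 0.0504 to 0.172). Spink4 differed by -0.01 ± 0.21 in iKO (adjusted p = 0.973) and -0.67 ± 0.25 in flox (adjusted p = 0.0562), the flox value passing without ileum flox 3, colon flox 3 or colon iKO 3 (0.036 to 0.0384), with the stricter filter on dim probes (0.0432), with the trend and robust options of limma (0.0409) and with array weights (0.0428). Spink4 was 0.10 ± 0.22 in iKO and -0.54 ± 0.26 in flox (adjusted p = 0.151) without both arrays with colonic markers. Clca1 was 0.33 ± 0.14 in iKO (adjusted p = 0.071) and -0.29 ± 0.16 in flox (adjusted p = 0.176), and the iKO value passed without colon iKO 2 (0.41, adjusted p = 0.0388), with quantile normalization (0.57, adjusted p = 0.00256), normexp background correction (0.34, adjusted p = 0.0492), the trend and robust options (adjusted p = 0.047) and a replicate block (adjusted p = 0.0457). The flox value of Clca1 passed with array weights (-0.40, adjusted p = 0.0448). With both arrays with colonic markers left out, Clca1 was 0.23 (adjusted p = 0.149) in iKO and -0.41 (adjusted p = 0.0529) in flox. The genotype by tissue test gave 0.62 ± 0.21 for Clca1 (0.17 to 1.08, unadjusted p = 0.0117, adjusted p = 0.728), 0.89 ± 0.33 for Fcgbp (unadjusted p = 0.0207, adjusted p = 0.793) and 0.66 ± 0.33 for Spink4 (unadjusted p = 0.0678, adjusted p = 0.822). In all, 9 of the 10 had a positive value, against 45.6% of genes, and 0 were called, where 7 genes or 0.0357% were; 2 members and 5.99% of genes had an unadjusted p under 0.05. Without both arrays with colonic markers the values were 0.65 ± 0.19 for Clca1, 0.89 ± 0.35 for Fcgbp and 0.64 ± 0.34 for Spink4, with 0 called.

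Lineage regulators and other goblet cell genes held many calls between the tissues. Over all genes 24.2% were called higher and 19.4% lower in colon in iKO, and 19.1% and 13.8% in flox, in the fit with all arrays. Of 18 lineage regulators 13 were called higher and 3 lower in colon in iKO, and 10 higher and 2 lower in flox, with medians of 0.94 and 0.64 against 0.07 and 0.08 over all genes. Without both arrays with colonic markers 12 were called higher and 3 lower in iKO, and 10 higher and 2 lower in flox. Foxa2 was higher in colon by 2.37 ± 0.18 in iKO (adjusted p = 2.04e-06) and 1.75 ± 0.21 in flox (adjusted p = 0.000104). Without both arrays it was higher by 2.50 in iKO and 1.74 in flox. Of 34 other goblet cell genes, 21 were called higher and 4 lower in iKO, and 18 higher and 4 lower in flox. Klk1, a kallikrein protease, rose by 2.41 ± 0.22 in iKO colon (adjusted p = 6.35e-06) and by 2.37 ± 0.25 in flox colon (adjusted p = 4.85e-05). Without both arrays 21 of the 34 were called higher and 4 lower in iKO, and 17 and 4 in flox. Klk1 then rose by 2.55 in iKO and 2.50 in flox. Genes of secretory protein folding ran the other way, with 1 higher and 17 lower in iKO and 0 higher and 13 lower in flox, and 2 higher and 15 lower in iKO and 0 higher and 9 lower in flox without both arrays with colonic markers. Of 28 genes of mucin O-glycosylation 12 were called higher and 5 lower in iKO, and 13 and 4 in flox. Of 8 other mucins 3 were called higher and 0 lower in iKO, and 2 and 0 in flox. Of 13 genes of the interleukin 4 and 13 axis 0 were called higher and 4 lower in iKO, and 1 and 5 in flox. Absorptive enterocyte markers, with 13 of 14 called lower in iKO and 14 of 14 in flox, and Paneth markers, with 7 of 8 called lower in each, moved with the tissue, and their part in the mucus gene differences was not tested. Without both arrays with colonic markers the counts called lower in these marker lists were the same.

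Within groups the 10 genes did not vary as 1 unit. After each group's mean was subtracted, Pearson's r over the 22 arrays was positive for 26 of the 45 pairs, with a median of 0.06. Tff3, Fcgbp, Clca1 and Zg16 varied together, with r of 0.82 for Tff3 and Fcgbp, 0.82 for Tff3 and Zg16, 0.79 for Clca1 and Fcgbp, 0.73 for Tff3 and Clca1, 0.66 for Fcgbp and Zg16 and 0.61 for Clca1 and Zg16. Muc2, Ern2 and Agr2 formed another set, at 0.56 for Muc2 and Ern2, 0.55 for Agr2 and Ern2 and 0.50 for Muc2 and Agr2. Retnlb and Spink4 ran together at 0.75, and Retnlb ran against Zg16 (-0.65) and Tff3 (-0.55). The sets were read off these values, each array gives all 10 genes at once, and the r carry no test; the arrays share their scaling. Over the 20 arrays left without both ileum arrays with colonic markers, r was 0.51 to 0.82 within the first set and 0.53 to 0.56 within the second, 0.69 for Retnlb and Spink4, and -0.59 for Retnlb and Zg16 but -0.36 for Retnlb and Tff3, with 30 of the 45 pairs positive.

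**Figure D4:**
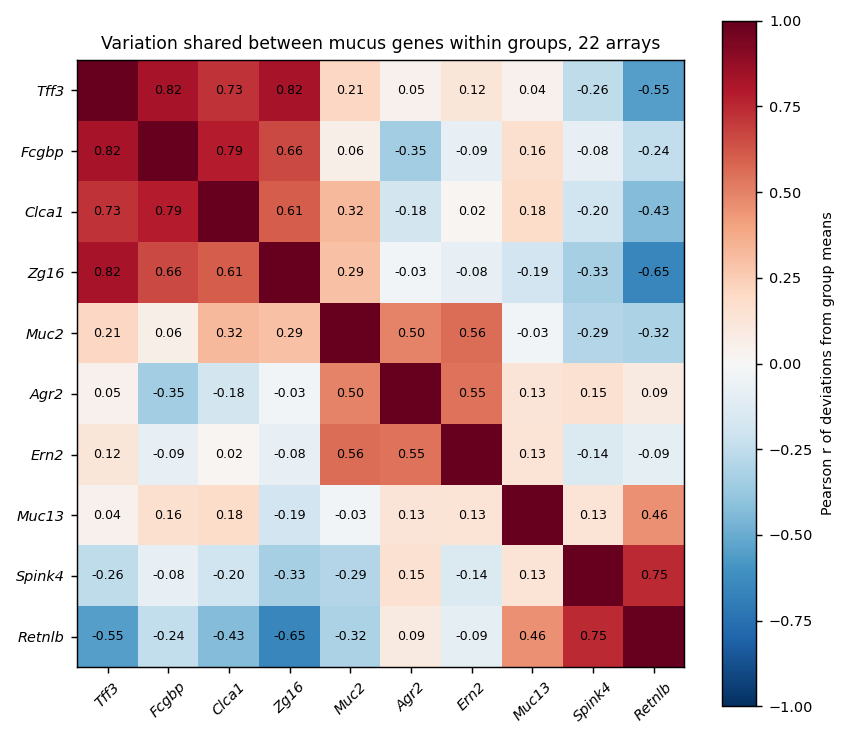
Pearson's r between the deviations of each pair of mucus genes from their group means over 22 arrays (colour scale from -1 to 1, values printed in the cells). Tff3, Fcgbp, Clca1 and Zg16 share r of 0.61 to 0.82, Muc2, Agr2 and Ern2 share 0.50 to 0.56, and Retnlb with Spink4 reach 0.75.

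Retnlb had a spread of its own. Its pooled SD within groups was 2.19, against 0.17 (Tff3) to 0.34 (Muc13) for the other 9 genes, and its signal ran from 48.8 on young flox ileum replicate 3 to 435410 on colon iKO replicate 1. The mean over the 10 genes therefore mostly follows Retnlb. Of 19517 genes compared, the one most like that mean within groups was Ccdc71l (r = 0.88 over 22 arrays, 0.90 in the 15 ileum and 0.89 in the 7 colon arrays). The next were BC061478 (0.85), Ociad2 (0.84), Shisal2b (0.84), Creld1 (0.84), Prom1 (0.83), Smpdl3a (0.83), Lyrm7 (0.83), Zdhhc13 (0.82) and Hk2 (0.82). In the 7 colon arrays alone Prom1 (-0.07), Zdhhc13 (0.25), Ociad2 (0.33) and Hk2 (0.41) were much less alike, against 0.88 (Hk2) to 0.93 (Prom1) in the 15 ileum arrays. With Retnlb left out of the mean, the 10 most alike genes were led by Kcnj8 (0.80) and Myo6 (0.77), and 0 genes were on both lists of 10. Without both ileum arrays with colonic markers the pooled SD of Retnlb was 1.86, Ccdc71l had r = 0.84 with the mean of the 10, and 4 of the 10 most alike genes were among those named first.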

How the data were processed

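Agilent 4x44K one-colour arrays of 22 total RNA samples were scanned, and the deposited intensities came from Agilent Feature Extraction (version 9.5 per the submitters' processing notes, 9.5.3.1 per the file headers): local background was subtracted and a spatial trend removed array by array, and nothing was scaled across arrays. The values of the deposited series table equalled these scanner intensities, so the authors' processing ended there. Outlier-marked spots (0.285%) and control spots were left out.

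From these intensities, log2 values minus each array's 75th percentile were computed, with 1 probe kept per gene, the one of highest mean, where all arrays of some group had it well above background. Names came from RefSeq (GRCm38.p6) by accession, symbol, synonym or probe description; coordinates are the array's own (mm7). limma 3.58.1 in R 4.3.3 was fitted to the 15 ileum, the 7 colon and the 14 aged arrays without covariates; adjusted p-values are Benjamini-Hochberg over all genes. The procedure was tested on simulated data. All 10 members are named; from each other list, every passing gene was eligible, or the 4 of smallest p, and the 10 genes most correlated with the members' mean. The members and lists were chosen with earlier results of these data known. The labels number the replicates without saying that same-numbered samples share a mouse, and no comparison had every same-numbered pair correlated above 0.1 (-0.36 to 0.37), so the numbers were not treated as pairs. Replicates are separate samples by the labels, which do not state separate animals for each, so p-values measure the spread between these samples. The number of arrays, 3 or 4 a group, limits the precision. Alternatives changed the scaling, background, filter, probe, fit, weights, slide, replicate block and each array in turn; leaving out both ileum arrays with colonic markers was added after seeing the data. Tables and figures used pandas 2.3.3, numpy 2.4.6 and matplotlib 3.10.9.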

Additional observations from a re-analysis of the deposited data

How the results depend on the processing

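The number of mucus genes called stayed within 1.5 times its main value in each comparison and setting, with these exceptions. Array weights called 2 in aged ileum, iKO against flox, where 0 were called, and 1 in flox ileum, aged against young, where 0 were called. In aged iKO, colon against ileum, 7 were called, and leaving out 1 array gave 4 to 7, with 4 without aged ileum iKO 1, 3 or 4 or colon iKO 1 or 4. The only called difference to change sign was Zg16 in that comparison (0.0149 with quantile normalization, adjusted p = 0.918). Single members gained a call in 19 and lost it in 36 combinations of setting and comparison. With replicate numbers as a block, the counts of called members were as without it in all 9 comparisons; in aged iKO, colon against ileum, Clca1 gained a call (0.33, adjusted p = 0.0457) and Retnlb lost it (3.87, adjusted p = 0.0678), and no other member's call changed. Quantile normalization moved the median of all genes to 0.12 in colon against ileum, in iKO and in flox, against 0.07 and 0.08. Members whose call changed under it moved further. Zg16 went from -0.33 to 0.01 in iKO and from -0.53 to -0.20 in flox, and Fcgbp from -0.70 to -0.55 in flox. Agr2 went from 0.34 to 0.60 in flox and Clca1 from 0.33 to 0.57 in iKO. The 75th percentile of signal was 1425 to 1751 on colon arrays and 1132 to 1231 on aged ileum arrays. Its part in the tissue differences was not tested. Slide as a fixed factor could not be fitted for colon against ileum. Position as a term in aged ileum, the likeness without Retnlb and leaving out both ileum arrays with colonic markers were chosen after seeing the data; the last gave 7 called members in flox, colon against ileum, where 6 were called, and no other change in a count. The 3 or 4 arrays a group leave Retnlb intervals several log2 units wide, and saturation limits Zg16.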
